A study of Rattus norvegicus with 8 samples.

Results

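The genes described here are 9 regulators of G protein signalling (RGS), Rgs1, Rgs2, Rgs3, Rgs10, Rgs12, Rgs14, Rgs16, Rgs18 and Rgs19, of 23487 genes in the deposited table. They were chosen by name from the RGS family with their counts and earlier results of the same comparison in view. Their levels in both groups, and the differences between the groups, are therefore given as a description without p-values. RNA was sequenced from peritoneal macrophages of female Wistar rats (8 weeks old per the labels), high in CD11b/c and dim in His48, which were obtained by cell sorting on day 15 from rats that had been given 2 mg of multi-walled carbon nanotubes into the peritoneum. In the CNT-7 group, 4 rats (numbers 3, 5, 10 and 11 in the labels) received needle-like MWCNT-XNRI-7, which cause mesothelioma in rats. In the CNT-T group, 4 rats (numbers 1, 2, 12 and 13) received tangled nanotubes, which do not. Untreated rats were not analysed here by RNA-seq, so that every difference is one between the 2 particles, and each library is labelled as that of one rat.

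G protein-coupled receptors act through heterotrimeric G proteins, whose alpha subunit signals while it holds GTP and stops once the GTP is hydrolysed. RGS proteins share a domain that binds the active alpha subunit and speeds this hydrolysis, and they thereby shorten the signal of the receptor. In macrophages and other leukocytes they act mainly on the Gi class, used by chemoattractant receptors, and on the Gq class, which activates phospholipase C. Rgs1, Rgs2, Rgs3, Rgs16 and Rgs18 belong to the R4 subfamily of mostly small proteins, Rgs10, Rgs12 and Rgs14 to the R12 subfamily, and Rgs19 to the RZ subfamily.

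The totals lay between 27195157 and 33732981 estimated counts per rat. Levels are given as CPM, counts per 1000000 counts with TMM normalization, and differences as the log2 ratio of the CNT-7 to the CNT-T level in the fit. In this scale 3 counts corresponded to between 0.0887 and 0.109 CPM. Transcript lengths were not used, so levels are compared between rats and not between genes. All 8 macrophage markers listed for the check of the cell type were detected, and their summed CPM was between 15179 and 22209 with CNT-7 and between 24098 and 34276 with CNT-T, with Lyz2 as at least 80.4% of the sum. Summed markers of T and NK cells were also unequal, with 10.6 to 14.1 CPM with CNT-7 and 5.74 to 6.36 CPM with CNT-T. Cd8a, which rat macrophages can also express, had 2.81 to 8.74 CPM and 0.717 to 1.21 CPM. Without Cd8a the sums were 4.34 to 11.3 CPM with CNT-7 and 4.97 to 5.6 CPM with CNT-T, so that the groups overlapped. Markers of B cells, mast cells and mesothelial cells each summed to at most 2.78 CPM in any rat. Eosinophil markers, mostly Ccr3, summed to 9.33 CPM in CNT-7 rat 3 and to at most 0.67 CPM in every other rat. The neutrophil markers, mostly Csf3r, summed to between 26.0 and 68.4 CPM. The part of these shifts in the values below was not tested.

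Rgs2, an inhibitor of Gq signalling that also restrains adenylyl cyclase, showed the widest difference between the groups among the 8 RGS genes that passed the filter on low counts. After CNT-7 it had 13.5 CPM in rat 3, 15.4 in rat 5, 15.1 in rat 10 and 12.3 in rat 11. The CNT-T rats had 35.5 CPM in rat 1, 34.7 in rat 2, 33.1 in rat 12 and 37.3 in rat 13. Every CNT-T rat was thus above every CNT-7 rat, with a gap between the groups that was wider than the range within either. The means were 14.1 ± 1.43 CPM (SD, n = 4) with CNT-7 and 35.1 ± 1.76 CPM (SD, n = 4) with CNT-T, and the fitted level was 2.50-fold lower with CNT-7 (log2 ratio -1.32, standard error 0.090). With any one rat removed, the log2 ratio of Rgs2 stayed between -1.37 and -1.26. In such bulk RNA, a smaller number of cells that contain a transcript cannot be told apart from less of it in each cell. Rgs2 also took a smaller part of the reads of the 9 genes together, between 2.71% and 3.39% with CNT-7 and between 5.77% and 7.0% with CNT-T. The spread between rats of the same group was small, with a coefficient of variation of 10.2% with CNT-7 and 5.02% with CNT-T.

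**Figure D1:**
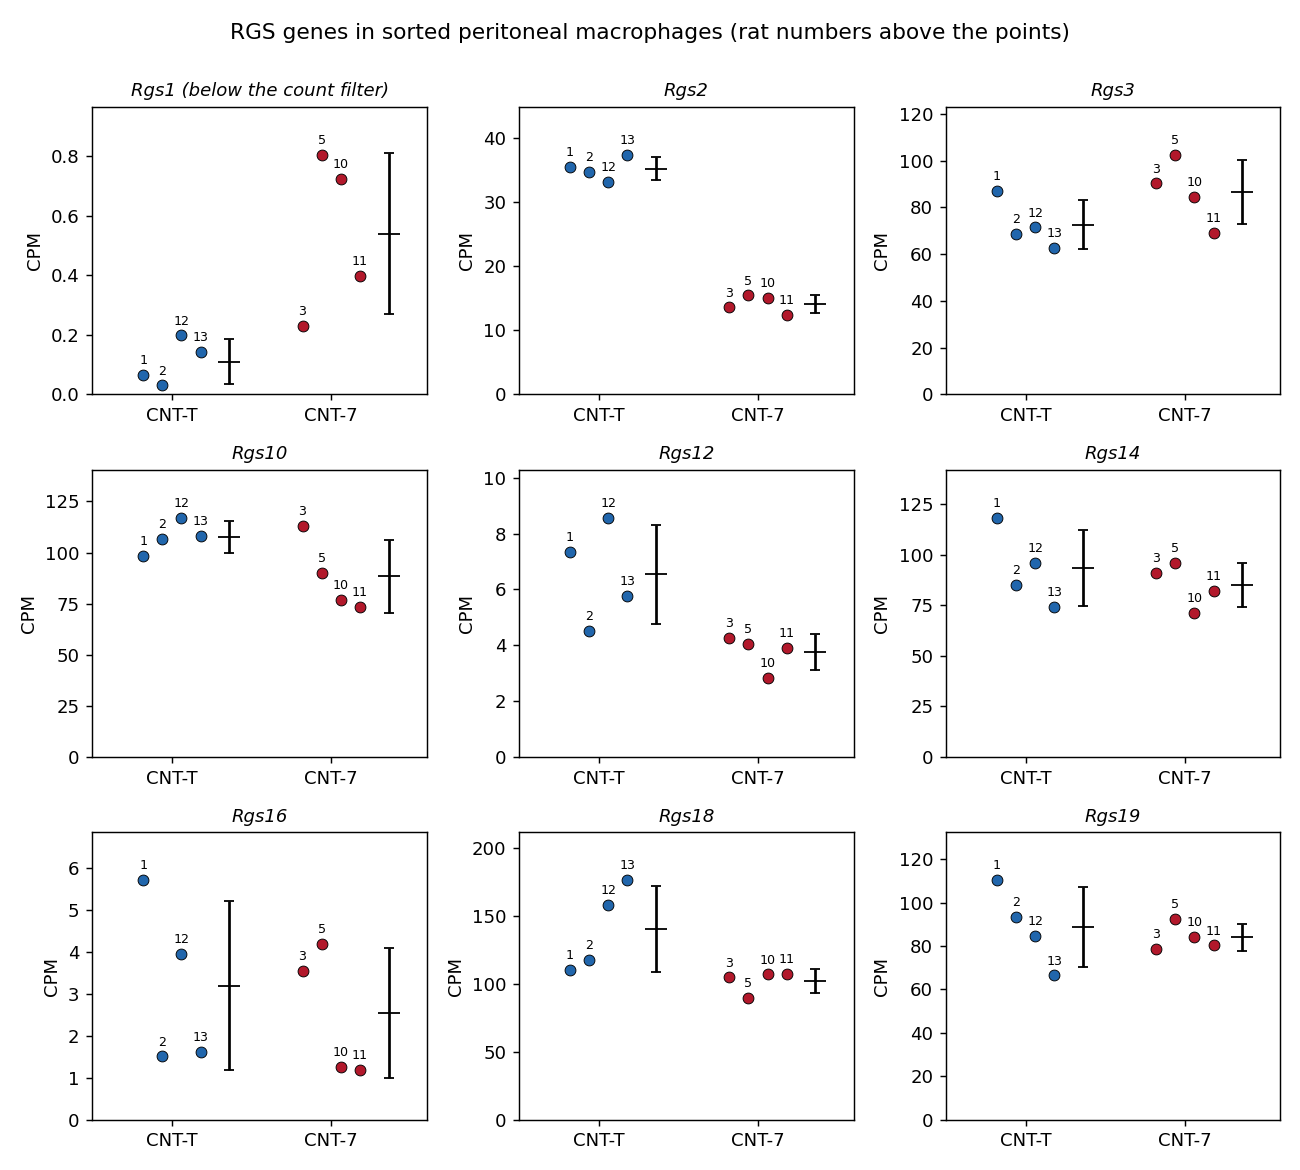
CPM (TMM-normalized) of the 9 RGS genes on linear axes from 0, one point per rat with its number above it, CNT-T rats in blue and CNT-7 rats in red. Bars are the mean ± SD of 4 rats. The CNT-7 points of Rgs2, Rgs12 and Rgs18 lie below all CNT-T points, those of Rgs1 lie above them at levels under 1 CPM, and in the other genes the groups overlap.

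Rgs12 and Rgs18 were lower with CNT-7 as well, by less and with the groups closer together. Rgs12, a large scaffold protein that binds Gi alpha subunits through a second motif besides its RGS domain, had 4.27, 4.05, 2.82 and 3.91 CPM in CNT-7 rats 3, 5, 10 and 11. In CNT-T rats 1, 2, 12 and 13 its levels were 7.34, 4.52, 8.57 and 5.76 CPM. The groups did not overlap, but CNT-T rat 2 lay just above the highest CNT-7 rat. The fitted level of Rgs12 was 1.74-fold lower with CNT-7 (log2 ratio -0.80, standard error 0.22), and the log2 ratio was between -0.94 and -0.64 with each rat left out.

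Rgs18 is restricted mainly to blood cells and is best known from platelets and their precursors. It had 104.8, 89.5, 107.1 and 107.3 CPM in CNT-7 rats 3, 5, 10 and 11 and 110.6, 117.9, 158.0 and 176.4 CPM in CNT-T rats 1, 2, 12 and 13. CNT-T rats 1 and 2 were only slightly above the CNT-7 rats, and rats 12 and 13 were well above them. Rgs18 was 1.38-fold lower with CNT-7 (log2 ratio -0.46, standard error 0.15). The platelet genes Gp9, Gp1ba and Gp1bb had 0 counts in every rat. The listed platelet markers other than Pf4, which took at least 99.0% of the sum, came to between 1.05 and 2.60 CPM with CNT-7 and between 1.73 and 2.87 CPM with CNT-T. Pf4 itself was lower with CNT-7, with 183 to 412 CPM against 466 to 720 CPM, and its part in the Rgs18 difference was not tested.

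In the fit over all 12124 genes that passed the filter, 3 of the 8 tested RGS genes had an adjusted p-value under 0.10 and were lower with CNT-7, namely Rgs2, Rgs12 and Rgs18. Of all genes tested, 14.0% were called lower by the same rule and 13.9% higher. By the quasi-likelihood test of edgeR, 0 of the 8 RGS genes were called higher with CNT-7, as by DESeq2, and 0 had an unadjusted p-value under 0.05 in that direction with either tool. The same 3 genes were those whose groups did not overlap, which was so in 24.9% of all genes tested. Nothing is read from these counts, since the genes were chosen with this comparison known. Without CNT-7 rat 5, CNT-T rat 12 or CNT-T rat 13, Rgs18 was no longer called, with its log2 ratio between -0.56 and -0.34 over the 8 fits with one rat removed. Without CNT-7 rat 3, Rgs10 was called in addition, and without CNT-7 rat 11 or CNT-T rat 1, Rgs3 was. With the calls of Rgs1 included where it passed the filter, the count was 5 without CNT-7 rat 3 or CNT-T rat 1 and 2 without CNT-7 rat 5.

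The other 5 tested genes had groups that overlapped. Rgs10, which consists of little more than the RGS domain and regulates Gi signalling in macrophages and microglia, had 113.1, 89.9, 76.8 and 73.5 CPM in CNT-7 rats 3, 5, 10 and 11, and 98.2, 106.6, 117.1 and 108.0 CPM in CNT-T rats 1, 2, 12 and 13. The 4 CNT-T rats were close together, and CNT-7 rats 5, 10 and 11 were below all of them. Its log2 ratio was -0.28 with a standard error of 0.13, and it ran from -0.42 to -0.20 with each rat left out.

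Of the 8 chosen RGS genes tested, only Rgs3, a regulator of Gi and Gq with several protein forms, had a fitted level above that of CNT-T. It had 90.2, 102.4, 84.5 and 69.2 CPM in CNT-7 rats 3, 5, 10 and 11 and 87.2, 68.7, 71.4 and 62.6 CPM in CNT-T rats 1, 2, 12 and 13 (log2 ratio 0.26, standard error 0.13). CNT-T rat 1 lay within the CNT-7 rats, and CNT-7 rat 11 within the CNT-T rats.

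Rgs14 and Rgs19 were the closest to equality. Rgs14, which combines an RGS domain with domains that bind Ras-like GTPases and inactive Gi alpha subunits, had between 71.3 and 96.2 CPM with CNT-7 and between 74.4 and 118.4 CPM with CNT-T (log2 ratio -0.13, standard error 0.15). For Rgs19, known as GAIP and first described as a partner of the Gi alpha subunit Gnai3, the ranges were 78.8 to 92.6 CPM and 66.5 to 110.3 CPM (log2 ratio -0.079, standard error 0.14). In both genes the CNT-T rats were more widely spread than the CNT-7 rats, with CNT-T rat 1 highest and rat 13 lowest of all CNT-T rats. The coefficient of variation of Rgs19 was 20.6% with CNT-T and 7.38% with CNT-7, and that of Rgs14 was 20.2% and 12.8%. For Rgs19 a fitted difference of either sign was obtained with single rats left out, from -0.20 to 0.042, and for Rgs14 it ran from -0.23 to -0.00029.

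Rgs16, which is induced on activation in many leukocytes and dampens chemokine receptor signals, varied more within the groups than between them. CNT-7 rats 3 and 5 had 3.55 and 4.19 CPM, whereas rats 10 and 11 had 1.26 and 1.195 CPM. CNT-T rats 1 and 12 had 5.71 and 3.96 CPM, whereas rats 2 and 13 had 1.51 and 1.61 CPM. Each group thus held 2 higher and 2 lower rats. The coefficient of variation was 60.7% with CNT-7 and 63.2% with CNT-T, the highest of the 8 tested RGS genes in both groups. Its log2 ratio of -0.32 had a standard error of 0.54 and ran from -0.67 to 0.12 with each rat left out, so that no difference of this size could be resolved between the groups.

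**Figure D2:**
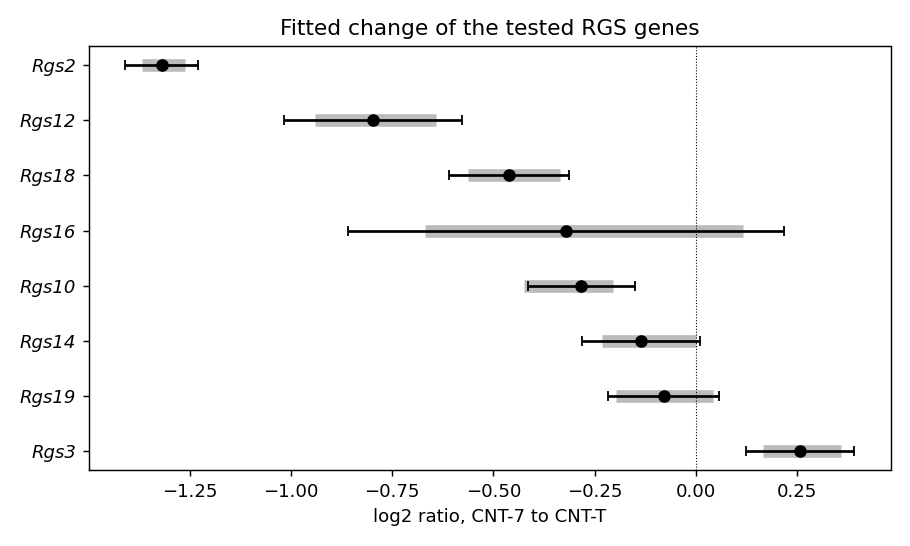
Log2 ratio of CNT-7 to CNT-T (horizontal axis) of the 8 tested RGS genes from the fit with all rats, as points with their standard errors. Grey bars are the range over the 8 fits with one rat removed, which crosses 0 for Rgs16 and Rgs19 and stays between -1.37 and -1.26 for Rgs2.

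Rgs1, which limits chemokine receptor signals and is best known from lymphocytes, did not pass the filter and was the gene with the fewest counts. It had 7, 24, 20 and 11 counts in CNT-7 rats 3, 5, 10 and 11 and 2, 1, 6 and 4 counts in CNT-T rats 1, 2, 12 and 13. All CNT-7 rats were thus above all CNT-T rats, although CNT-7 rat 3 and CNT-T rat 12 differed by 1 count and only CNT-T rats 12 and 13 were above the floor of 3 counts. Over the 4 rats of each group there were 62 counts with CNT-7 and 13 with CNT-T, 5.06-fold more at equal depth, with an exact 95% interval from 2.76 to 10.0 that covers counting error alone. Where Rgs1 could be fitted, without the filter or with CNT-7 rat 3 or any one CNT-T rat left out, its log2 ratio was between 1.96 and 2.74. In those fits it passed mainly through the group in which it was higher. Of the 5 B cell markers listed, 4 were in the table. CNT-7 rat 5, with the highest Rgs1, also had the highest summed markers of T and NK cells (14.1 CPM) and of B cells (2.78 CPM). The B cell sum was 0.15 to 0.46 CPM in the other 7 rats. CNT-7 rat 10, with the next highest Rgs1, had the lowest T and NK cell sum of its group (10.6 CPM). That order depends on Cd8a, with 5.31 CPM in rat 10, 8.74 in rat 3 and 7.2 in rat 11. Cd3e was higher in rat 10 (0.506 CPM) than in rats 3 and 11 (0.328 and 0.29 CPM). Cd3d was lower in rat 10 (0.0722 CPM) than in rats 3 and 11 (0.131 and 0.109 CPM). The B cell sum of rat 10 was 0.22 CPM. The part of lymphocytes in the Rgs1 counts was not tested.

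Several of the RGS genes are neighbours in the genome. In the RefSeq annotation of the rat assembly GRCr8, Rgs2, Rgs13, Rgs1, Rgs21 and Rgs18 follow one another on chromosome 13 with 0 other protein-coding genes between them. Further along the same chromosome lie Rgs8, Rgs16 and Rgsl1. The 3 expressed genes of the first run differed in direction, with Rgs2 and Rgs18 lower and the few counts of Rgs1 higher with CNT-7, while Rgs13 and Rgs21 had 0 counts in all 8 rats. The 250 bases before the annotated start of these 3 genes are shown because the genes are neighbours with unequal values. The sequences are from RefSeq, build GRCr8, all on the minus strand and read 5′ to 3′, and capitals mark a match to one of the motifs searched.
Rgs2, chr13:58352667-58352916: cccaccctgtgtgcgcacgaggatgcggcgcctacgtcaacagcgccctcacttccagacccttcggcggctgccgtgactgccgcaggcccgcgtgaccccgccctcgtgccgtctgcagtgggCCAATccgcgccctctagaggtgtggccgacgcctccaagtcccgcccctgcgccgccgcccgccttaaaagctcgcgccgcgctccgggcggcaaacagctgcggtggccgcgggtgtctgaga
Rgs1, chr13:58573188-58573437: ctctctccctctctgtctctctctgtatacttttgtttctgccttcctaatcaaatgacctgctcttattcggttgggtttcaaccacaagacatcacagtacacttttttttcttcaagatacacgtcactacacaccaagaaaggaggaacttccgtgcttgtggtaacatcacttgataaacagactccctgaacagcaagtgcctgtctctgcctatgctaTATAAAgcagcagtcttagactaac
Rgs18, chr13:59066343-59066592: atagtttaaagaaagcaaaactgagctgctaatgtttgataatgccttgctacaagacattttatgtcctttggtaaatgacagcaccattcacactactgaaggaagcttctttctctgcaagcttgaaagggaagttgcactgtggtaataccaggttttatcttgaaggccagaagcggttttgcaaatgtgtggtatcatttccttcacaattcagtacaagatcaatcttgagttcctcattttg

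The promoter windows differ in base composition, with 72.4% G and C for Rgs2, 42.8% for Rgs1 and 38.4% for Rgs18. The letters searched on both strands were the TATA box (TATAAA), the CCAAT box (CCAAT), the cyclic AMP response element (TGACGTCA), an AP-1 site (TGANTCA), a PU.1 site (GAGGAAGT) and an E-box (CACGTG), none of which contains another. In Rgs1 a TATA box began 25 bases before the start, and 12.9% of the 33469 annotated windows hold these letters. Rgs2 had a CCAAT box 125 bases before the start, which 34.0% of the windows hold. None of the 6 motifs was found in the window of Rgs18. The rarer ones were held by 1.59% (cyclic AMP response element), 2.04% (PU.1), 5.59% (E-box) and 6.34% (AP-1) of all windows. Among the other members, Rgs16 held a CCAAT box, Rgs12 an AP-1 site, Rgs19 an E-box and Rgs3 a TATA box 184 bases before its start. These matches describe letters and are not measured sites.

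Most other RGS genes had few or no counts in these macrophages. Of 16 further family members and binding partners listed, 13 were in the table, and 7 of them had 0 counts in every rat, namely Rgs4, Rgs5, Rgs7, Rgs13, Rgs17, Rgs21 and Rgs22. Rgs6, Rgs9 and Rgs9bp had at most 7 counts in any rat. Rgs8, Rgs20 and Axin2 could be tested. Rgs8, an R4 gene beside Rgs16, had 0.64 ± 0.16 CPM with CNT-7 and 0.45 ± 0.16 CPM with CNT-T (SD, n = 4 each), with an adjusted p = 0.33 by the quasi-likelihood test of edgeR. For Rgs20 the means were 0.67 ± 0.23 and 0.52 ± 0.33 CPM (adjusted p = 0.63), and for Axin2, a Wnt pathway scaffold that carries an RGS domain, they were 1.53 ± 0.89 and 2.05 ± 0.54 CPM (adjusted p = 0.53). Their log2 ratios were 0.53 for Rgs8, 0.38 for Rgs20 and -0.42 for Axin2. By edgeR and by DESeq2, 0 of these 3 genes were called, and 0 had an unadjusted p-value under 0.05. Rgsl1, an RGS-like gene outside the lists, was named after its values were seen. It had between 2.1 and 4.43 CPM with CNT-7 and between 1.596 and 3.10 CPM with CNT-T. Its log2 ratio was 0.37 (adjusted p = 0.42 by the quasi-likelihood test of edgeR).

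The partners of the RGS proteins were then examined in 7 lists of 132 genes of G protein signalling, the further RGS genes included. Of 94 genes tested, 23 (24.5%) were called higher and 18 (19.1%) lower with CNT-7, where 13.9% of all 12124 genes tested were called higher and 14.0% lower. The median log2 ratio was 0.058 beside 0.0083 over all genes tested. The lists were written with earlier results of these data known. Their genes are described by their roles, from the G proteins that RGS proteins act on to the receptors upstream.

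Among the alpha subunits, 8 of 13 were tested, 2 rose and 0 were called lower by edgeR or DESeq2, 1 gene (Gnaq) having an unadjusted p-value under 0.05 in that direction with both tools. The median log2 ratio was 0.048. Gna13, which signals through exchange factors that contain an RGS domain, had 116.4, 134.4, 127.0 and 109.1 CPM in CNT-7 rats 3, 5, 10 and 11 and 83.9, 81.2, 77.8 and 87.3 CPM in CNT-T rats 1, 2, 12 and 13. The groups did not overlap, and Gna13 rose by a log2 ratio of 0.56 (standard error 0.080, adjusted p = 0.0016 by the quasi-likelihood test of edgeR). Gnai3, a Gi subunit and a substrate of several RGS proteins, had 330 ± 41.6 CPM with CNT-7 and 261 ± 19.1 CPM with CNT-T (SD, n = 4), with overlapping groups (log2 ratio 0.34, adjusted p = 0.042). Its adjusted p-value was between 0.10 and 0.11, and no longer under the threshold, without CNT-7 rat 5, CNT-7 rat 10 or CNT-T rat 12. The tested Gq class genes Gnaq, Gna11 and Gna15 were not called (log2 ratios -0.24, -0.15 and 0.040), and neither was Gnai2, another Gi subunit (-0.050).

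Of 16 beta and gamma subunits, which separate from the active alpha subunit, 11 were tested, 2 rose and 2 fell, with a median log2 ratio of -0.0020. Gng10 had 377 ± 49.6 CPM with CNT-7 and 610 ± 35.6 CPM with CNT-T (log2 ratio -0.69, adjusted p = 0.0018). The other gene that fell was Gng2, by 0.28 on the log2 scale with an adjusted p = 0.061, and it was not called in 5 of the 8 fits with one rat removed (CNT-7 rats 3, 10 and 11, CNT-T rats 1 and 12). Gnb4 rose with a log2 ratio of 0.43 (adjusted p = 0.0075), from 22.6 ± 1.43 to 30.4 ± 2.72 CPM. The remaining gene that rose was Gng8, at a mean under 1 CPM in each group, which was not called without CNT-7 rat 10.

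Among 11 other regulators of G proteins, 10 were tested, 2 fell and 0 were called higher by edgeR or DESeq2, with 0 genes at an unadjusted p-value under 0.05 in that direction, and the median log2 ratio was 0.0033. Arhgef12, a guanine nucleotide exchange factor that carries an RGS domain and is activated by the G12/13 class, had 16.5, 19.7, 23.0 and 19.98 CPM in CNT-7 rats 3, 5, 10 and 11 and 38.3, 38.3, 32.4 and 37.6 CPM in CNT-T rats 1, 2, 12 and 13. It was therefore lower in every CNT-7 rat (log2 ratio -0.89, standard error 0.11, adjusted p = 0.00074 by the quasi-likelihood test of edgeR). Gpsm2, which binds inactive Gi alpha subunits and orients the mitotic spindle, fell from 14.5 ± 1.604 to 8.85 ± 2.44 CPM (log2 ratio -0.71, adjusted p = 0.024). The related exchange factors Arhgef1 and Arhgef11 had log2 ratios of 0.037 and -0.033 and were not called.

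The kinases and arrestins that switch off the receptors themselves were 8 genes, of which 7 were tested, 1 rose and 2 fell, with a median log2 ratio of -0.085. Grk3 had 36.7 ± 2.71 CPM with CNT-7 and 19.8 ± 3.43 CPM with CNT-T (log2 ratio 0.89, adjusted p = 0.0015). In the opposite direction, Arrb2, an arrestin that uncouples and internalises receptors, had 390 ± 102 against 714 ± 119 CPM (log2 ratio -0.87, adjusted p = 0.011). Grk6 fell from 335 ± 28.5 to 274 ± 19.2 CPM (log2 ratio -0.29, adjusted p = 0.039).

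Of 27 effector genes of the cyclic AMP and phospholipase C routes, 20 were tested, 5 rose and 5 fell, and their median log2 ratio was 0.12. Plcb4, a phospholipase C activated by Gq, had 12.9, 21.0, 14.1 and 16.7 CPM in CNT-7 rats 3, 5, 10 and 11 and 42.6, 26.5, 41.4 and 41.0 CPM in CNT-T rats 1, 2, 12 and 13. Even the lowest CNT-T rat, rat 2, was above every CNT-7 rat (log2 ratio -1.23, standard error 0.19, adjusted p = 0.0022). Prkacb, a catalytic subunit of protein kinase A, fell from 148 ± 19.9 to 88.2 ± 5.61 CPM (log2 ratio -0.75, adjusted p = 0.0012). The phosphodiesterase gene Pde4b, which breaks down cyclic AMP, rose from 4.81 ± 0.33 to 8.57 ± 2.22 CPM (log2 ratio 0.83, adjusted p = 0.011). Adcy6, an adenylyl cyclase inhibited by Gi, rose from 11.01 ± 0.86 to 18.3 ± 4.72 CPM (log2 ratio 0.73, adjusted p = 0.015).

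Receptors known from macrophages made up the longest list, with 41 genes, of which 35 were tested, 13 rose and 7 fell, at a median log2 ratio of 0.11. Over all genes tested the shares were 13.9% higher and 14.0% lower. The widest changes with a mean of at least 1 CPM were in this list. Cx3cr1, the Gi-coupled fractalkine receptor, had between 40.0 and 143.8 CPM with CNT-7 and between 3.29 and 6.77 CPM with CNT-T, and it rose with a log2 ratio of 4.12 (standard error 0.47, adjusted p = 0.00059). The histamine receptor Hrh1, which couples to Gq, had 2.82 ± 1.44 CPM with CNT-7 and 0.62 ± 0.45 CPM with CNT-T (log2 ratio 2.18, adjusted p = 0.014), and its log2 ratio was 2.80 without CNT-T rat 1. S1pr4, a receptor for sphingosine 1-phosphate, rose as well, from 2.43 ± 0.63 to 7.02 ± 2.62 CPM (log2 ratio 1.53, adjusted p = 0.0073). Gpr34, a lysophosphatidylserine receptor of macrophages and microglia, fell from 15.5 ± 5.25 to 4.14 ± 1.21 CPM (log2 ratio -1.90, adjusted p = 0.0017).

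**Figure D3:**
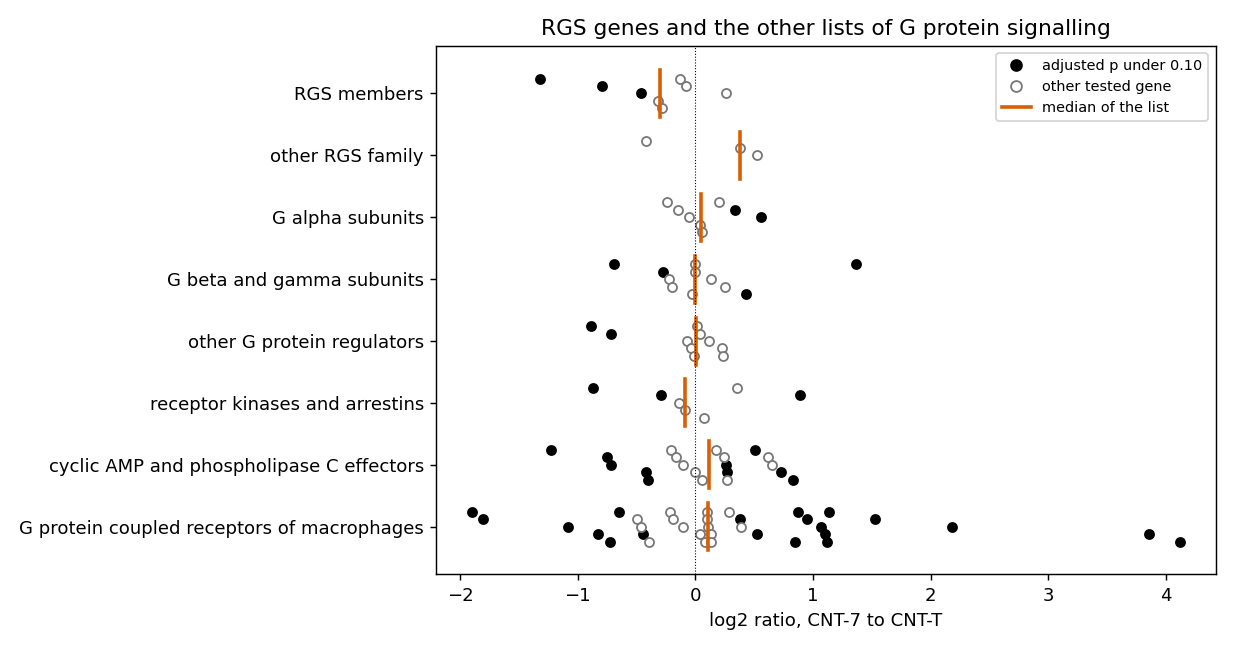
Log2 ratio of CNT-7 to CNT-T for each tested gene (points) of the 9 RGS genes and of 7 further lists of G protein signalling, one list per line. Filled points had an adjusted p-value under 0.10 and orange bars are medians. In the RGS line the 3 filled points are below 0. Of the 7 further lists, 4 hold filled points on both sides of 0. The other G protein regulators hold them only below 0, the G alpha subunits only above 0, and the other RGS family holds none.

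The genes whose pattern over the 8 rats was nearest to those of Rgs2, Rgs12 and Rgs18 were found among 10931 other named genes tested, by the root mean square difference of log2 CPM centred on each gene's mean. For Rgs2 they were Nrgn (0.139), Sash1 (0.147) and Lonrf3 (0.155), which had log2 ratios of -1.34, -1.29 and -1.30. Those nearest to Rgs12 were Cisd3 (0.129), Odf2l (0.143) and Plcb2 (0.15), and Plcb2 had 91.7 CPM on average with CNT-7 and 151.0 CPM with CNT-T. The nearest genes to Rgs18 were G2e3 (0.075), Taf1d (0.0987) and Iqcb1 (0.1). These differences are in log2 units and describe likeness alone.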

How the data were processed

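Sorted peritoneal macrophages of 8 rats, 4 given CNT-7 and 4 given CNT-T, were sequenced (stranded, paired-end mRNA libraries). The authors quantified the reads with Salmon (version not given in the sources used here) against the Ensembl cDNA sequences of Rnor_6.0 and summed them per gene with tximeta. The deposited values are estimated counts, already whole numbers, without normalization, and 0 columns were left out. Estimated counts divide reads between similar transcripts. Each count column was assigned to a rat by its title.

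The whole table was fitted with edgeR 4.0.16 in R 4.3.3, using its quasi-likelihood test, TMM normalization, the default filter of filterByExpr (minimum count 10, minimum total 15) and Benjamini-Hochberg adjustment over 12124 genes, with genes called under 0.10. Log2 ratios compare CNT-7 with CNT-T, and each standard error was taken as the absolute log2 ratio divided by the square root of F. CPM use TMM-scaled library sizes. Of the symbols given to several identifiers, Gnas and Pde4c were each counted once, with the identifier of higher level.

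The members and lists were chosen with earlier results of these data known. Other genes were named by rule, as the tested further RGS genes and, in each other list, at most the 4 largest called changes with a mean of at least 1 CPM, and for each called member the 3 genes of nearest pattern. Further genes of a list are mentioned with their values to complete its description and were chosen after those values were seen. The filter left 1 of the 9 members, Rgs1, without a fit. Alternatives were DESeq2 1.42.0, upper-quartile normalization, no filter, a mean of at least 1 CPM, a term for rat numbers of 10 or more, each rat left out in turn, an adjusted p-value under 0.05 and a change of at least 2-fold. Promoters are those of RefSeq on GRCr8 (all 9 members matched by symbol), a build other than that of the counts, and no coordinates of the counted genes are given.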

Additional observations from a re-analysis of the deposited data

Results flagged for a closer look

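A single rat stood apart from the other 3 of its group in 7 of 60 groups examined (9 RGS genes and 21 other named genes in both groups), its gap to the nearest rat taking up nearly the whole range of the group. About 1 in 20 such groups, 3 here, stands out by chance. Rgs18 was lowest in CNT-7 rat 5 (ratio 0.863), at 89.5 CPM while rats 3, 10 and 11 had 105 to 107 CPM. Plcb4 and Pde4b were lowest in CNT-T rat 2 (ratios 0.904 and 0.886), at 26.5 and 4.32 CPM, and Cx3cr1 was highest there (0.856), at 6.77 CPM. In CNT-T rat 12 Arhgef12 was lowest (0.872), at 32.4 CPM, and Adcy6 was highest (0.905), at 12.3 CPM. Grk6 was lowest in CNT-7 rat 10 (0.845), at 246 CPM. The cause was not tested.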

How the results depend on the processing

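Of the RGS genes, 3 were called, and 3 were also called with DESeq2, upper-quartile normalization, a mean of at least 1 CPM and a term for rat numbers of 10 or more. Without the filter 4 were called, Rgs1 entering, at an adjusted p under 0.05 there were 2, and with at least a 2-fold change 1 (Rgs2). With each rat left out the count ran from 2 (without CNT-7 rat 5) to 5 (without CNT-7 rat 3 or CNT-T rat 1, Rgs1 entering in both). Over the 13 alternative fits, all 104 log2 ratios of the 8 tested RGS genes moved by less than the SD between rats. For the fits with a single rat left out this outcome was nearly fixed in advance, so it says little about stability. The log2 ratios of Rgs16 and Rgs19 changed sign in such fits. Of the 94 other genes of the pathway, 41 were called (23 higher, 18 lower), and a 2-fold change left 13 (9 higher, 4 lower), fewer by construction. Over the fits of the 21 other named genes, 263 had the same outcome as before, called in the same direction or not called. The other 8 lost the call, those of Gnai3 and Gng2 with single rats left out. The 263 include the fits of Rgs8, Rgs20 and Axin2, which had no call to lose. No paired analysis was possible because no rat number occurs in both groups. Depth limits Rgs1 and the further RGS genes with few counts.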

Other observations

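Rgs16 had 2 higher and 2 lower rats in each group, and the tested gene nearest to it over the 8 rats was Cd40, a receptor of antigen-presenting cells, chosen after its values were seen. Cd40 had 7.75 and 7.34 CPM in CNT-7 rats 3 and 5 and 2.53 and 1.92 CPM in rats 10 and 11. CNT-T rats 2 and 13 had 4.17 and 4.73 CPM, below the 8.25 CPM of rat 1 and the still higher level of rat 12. The rats that were higher in Rgs16 were thus the same as those higher in Cd40, within each group (root mean square difference 0.378 in log2 CPM), and the pattern was found by search among 10931 genes.

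The 9 RGS genes together took between 0.0434% and 0.0503% of all counts with CNT-7 and between 0.0514% and 0.0574% with CNT-T. Within these reads the share of Rgs18 ran from 18.1% to 33.1% over the 8 rats, and that of Rgs3 from 11.7% to 20.7%. Rgs3 took 16.1% to 20.7% with CNT-7 and 11.7% to 15.2% with CNT-T. In CPM the groups overlapped for Rgs3, with 69.2 to 102.4 CPM with CNT-7 and 62.6 to 87.2 CPM with CNT-T. The total that the share is taken from was itself lower with CNT-7. All these shares are of reads and carry the lengths of the transcripts.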
